A study of Mus musculus with 8 samples.

Results

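The genes described here encode 10 heat shock chaperones: Hspa1a, Hspa1b, Dnajb1, Hsph1, Hspb1, Hsp90aa1, Hsp90ab1, Hspa8, Hspa5 and Hspd1. They were found by symbol among the 54532 gene rows of the deposited count table, each symbol on 1 row, and all 10 passed the filter on low counts. Poly(A) RNA sequencing measured their transcripts in L3-L5 dorsal root ganglia, which hold the cell bodies of sensory neurons, from C57BL/6 mice. In the MIA_Acu group (4 libraries), osteoarthritis (OA) was induced by injecting monosodium iodoacetate into a joint, and the mice then had manual acupuncture at the point ST36 each day for 7 days. The MIA group (4 libraries) had the same joint injection and no treatment. Both groups thus carry the chemical joint injury, and neither uninjured mice nor mice with handling alone were analysed here. No source used here says which mouse or pool gave a library, so the spread behind the p-values may be technical. The submitters' design text gives 3 mice a group, while the table holds 4 libraries of each. Libraries are named by their group and the number in their column name. The numbers of MIA_Acu 3 and MIA 4 match no sample title of their group, so results are also given for the 6 libraries numbered 1, 2 and 5.

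The libraries held 32892804 to 40627041 counts. Summed over 14 pan-neuronal markers, all with counts in every library, the level was 14004 to 16062 CPM (counts scaled to a common library total, with library sizes adjusted by TMM) in MIA_Acu and 16286 to 21111 CPM in MIA, so neuronal RNA was present in each library. Markers of tissue around the ganglion varied widely. Skeletal muscle markers (9 of 9 tested higher in MIA_Acu, 1 of 10 at 0 in a library) summed to 387 to 5599 CPM in MIA_Acu and 36.9 to 3605 CPM in MIA. Bone and cartilage markers reached 641 CPM in MIA_Acu 3, against 27.9 to 75.4 CPM in the other 7 libraries. Spinal cord glia markers (8 of 8 tested higher in MIA_Acu, 4 of 10 at 0 in a library) summed to 373 CPM in MIA_Acu 2 and 419 CPM in MIA_Acu 5. In the remaining libraries they summed to 28.1 to 137 CPM. The part of such tissue in the values below, those of the 6 libraries included, was not tested. In bulk tissue, fewer cells of a type and less RNA per cell cannot be told apart.

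Chaperones bind unfolded or partly folded proteins and keep them from aggregating while they reach their folded state. HSP70 proteins do so in cycles of ATP hydrolysis that J-domain proteins start and nucleotide exchange factors end, and they hand some clients on to HSP90. Under heat or oxidative stress the transcription factor HSF1 leaves its complex with chaperones and binds heat shock elements, arrays of the letters GAA in alternating orientation, which switches on the inducible members. HSPA5 serves the endoplasmic reticulum and answers to the unfolded protein response, and HSPD1 folds proteins in the mitochondrial matrix. Sensory neurons carry axons far longer than their cell bodies, and HSPB1 is known for supporting their axons: mutations of its human counterpart cause inherited neuropathy.

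Per kilobase of the longest coding transcript, the levels of the 10 transcripts spanned nearly 3 orders of magnitude. Hspa8 was at 910 ± 80.0 CPM per kilobase in MIA_Acu and 1060 ± 89.0 in MIA, and Hsp90ab1 at 865 ± 75.0 in MIA_Acu and 1061 ± 84.6 in MIA (SD, n = 4 each). These highest levels overlapped over the 8 libraries and traded places, Hspa8 being the higher in 4. Hsp90aa1 came next at 562 ± 69.9 CPM per kilobase in MIA_Acu and 654 ± 61.5 in MIA, below both in all 8 libraries. Hspb1, Hspd1, Hspa5 and Hsph1 formed a middle range, with means over 8 libraries of 120, 108, 83.2 and 71.5 CPM per kilobase, in which each overlapped the next. Lowest lay the stress-inducible J-domain partner and HSP70 pair: Dnajb1 at 18.5, Hspa1b at 4.65 and Hspa1a at 1.63 CPM per kilobase, with no overlap between them. Of the 100-base windows of each transcript of the pair, 47.1% of Hspa1a and 49.9% of Hspa1b occur unchanged in the other. The handling of reads from such stretches is not stated. The levels of the pair, their order and the span of the 10 levels are therefore uncertain. With the mean length of all annotated transcripts in place of the longest coding one, Hsp90ab1 stood first (2755 CPM per kilobase) ahead of Hspa8 (1918) and Hspb1 moved from the fourth to the seventh place.

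**Figure D1:**
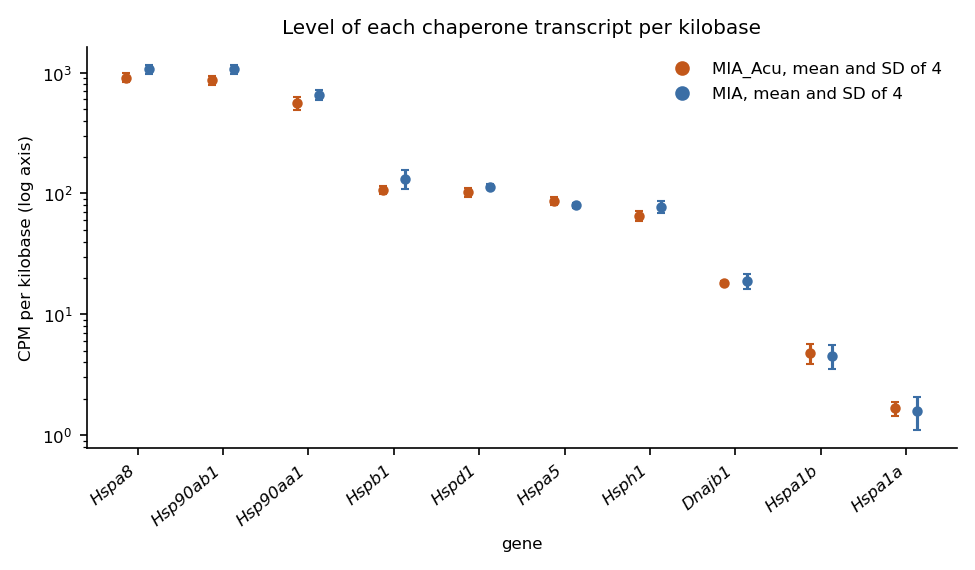
Mean level of each chaperone transcript in CPM per kilobase of its longest coding transcript (log axis), for MIA_Acu (left point of each pair) and MIA (right point); bars are the SD of 4 libraries. Hspa8 and Hsp90ab1 stand highest, with means over 8 libraries of 985 and 963, and Hspa1a lowest at 1.63 CPM per kilobase.

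Together the 10 genes took 0.715% ± 0.0482 of all counts in MIA_Acu and 0.844% ± 0.0657 in MIA (SD, n = 4 each). Of this share, Hspa8, Hsp90aa1 and Hsp90ab1 made up 86.3% in MIA_Acu and 87.4% in MIA. Mean levels of 7 members were lower and of 3 higher in MIA_Acu than in MIA, where 47.1% of the 18971 genes tested had a negative fold change. The members' median log2 fold change was -0.18, against 0.02 for all genes tested. None of the differences passed the threshold of an adjusted p under 0.05 in edgeR's quasi-likelihood test on 8 libraries (0 of 10 members, smallest adjusted p = 0.146), where 0% of all genes did. At an unadjusted p under 0.05, 3 members were lower (Hsp90ab1, Hspb1 and Hsph1), against 10.6% of all genes, and 0 were higher, against 11.2%. On the same libraries DESeq2 called 1 member lower (Hsp90ab1, adjusted p = 0.0152), against 9.21% of all genes called in either direction and 4.79% lower, and limma voom called 0 members and 0 genes. In the 6 libraries numbered 1, 2 and 5, 8 members were lower and 2 higher, against 50.3% of all genes lower and 49.7% higher. There edgeR called 1 member lower (Hspb1), against 10.4% of all genes called, 6.22% higher and 4.14% lower. It called 0 members with the groups of MIA_Acu 3 and MIA 4 exchanged (1.09% of all genes), with no filter on low counts (0.0176%) and without MIA 4 (6.97%). The groups of 8 libraries overlapped for every member, while 5.91% of all genes were lower and 4.95% higher without overlap.

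**Figure D2:**
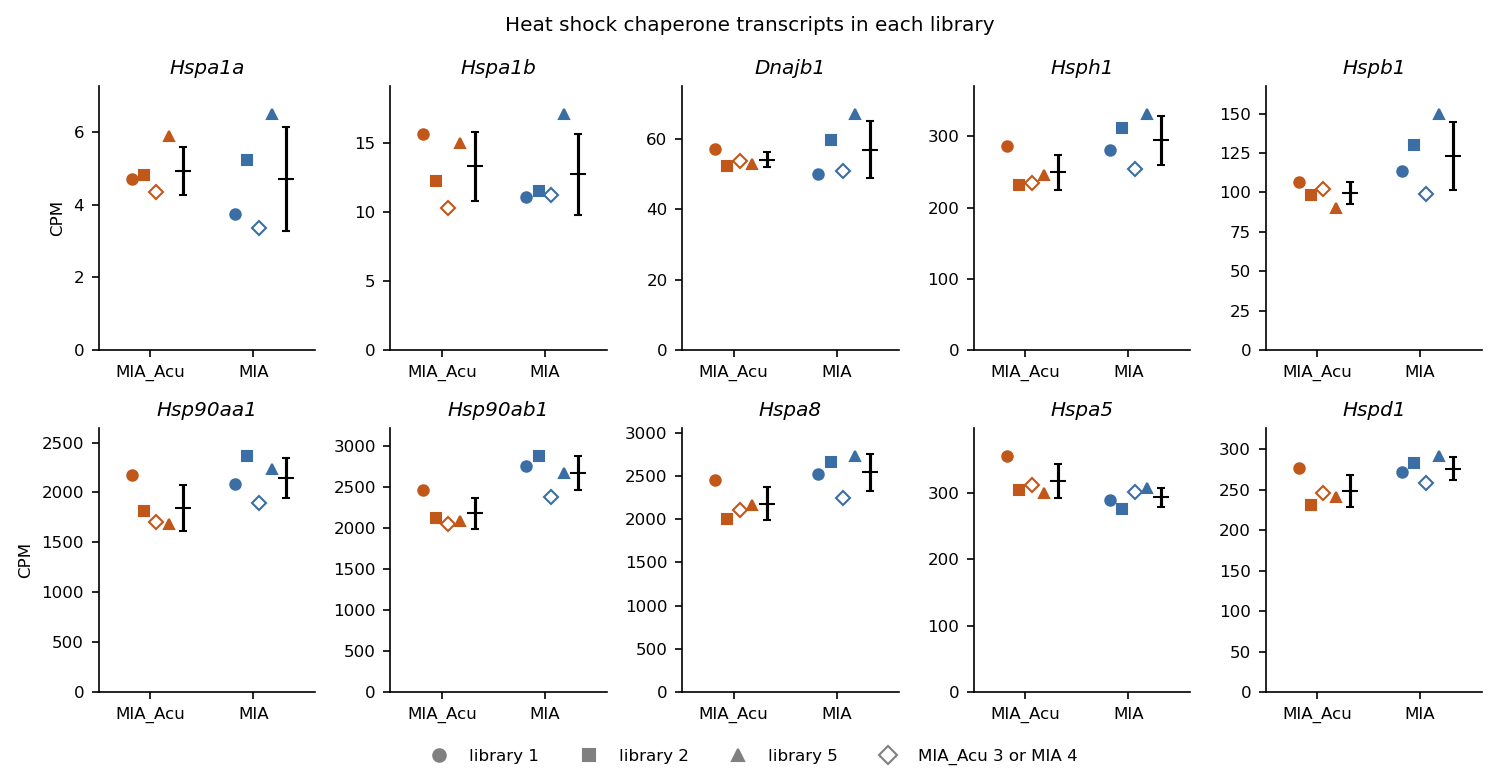
CPM of each chaperone gene (linear axes from 0) in the 4 MIA_Acu libraries (left) and the 4 MIA libraries (right); black marks are the mean and SD of 4, and open diamonds are MIA_Acu 3 and MIA 4. In Hsp90ab1, Hspa8, Hsph1 and Hspb1 most MIA_Acu libraries lie below most MIA libraries, and in each the groups overlap.

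Hspa1a (ENSMUSG00000091971) and Hspa1b (ENSMUSG00000090877) encode the stress-inducible cytosolic HSP70 and lie next to each other in the major histocompatibility region. Their promoters are shown because they are nearly the same sequence and carry the same heat shock element. The windows are the 250 bases before the RefSeq start site in build GRCm38.p6 (chr17:34972157-34972406, minus strand, and chr17:34959239-34959488, minus strand), with matches to GAANNTTC in capitals, and they differ at 3 of 250 positions.
Hspa1a: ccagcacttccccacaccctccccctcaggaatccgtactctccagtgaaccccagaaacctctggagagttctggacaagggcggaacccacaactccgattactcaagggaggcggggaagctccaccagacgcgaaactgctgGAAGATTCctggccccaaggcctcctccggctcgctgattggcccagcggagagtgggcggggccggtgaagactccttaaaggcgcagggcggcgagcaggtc
Hspa1b: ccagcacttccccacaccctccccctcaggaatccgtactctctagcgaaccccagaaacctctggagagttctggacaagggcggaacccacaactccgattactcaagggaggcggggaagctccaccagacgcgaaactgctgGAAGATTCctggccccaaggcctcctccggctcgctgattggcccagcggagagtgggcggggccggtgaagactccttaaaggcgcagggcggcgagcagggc
The longest reading frames of the GENCODE M21 transcripts are 99.4% identical as well, and 47.1% of all 100-base windows of the Hspa1a transcript occur unchanged in that of Hspa1b. The handling of reads from such stretches is not stated, which leaves the levels of the pair and the split between them uncertain. A gene on the opposite strand (Gm20481) also overlaps Hspa1a in that annotation.

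Hspa1a was at 4.71, 4.81, 4.35 and 5.89 CPM in MIA_Acu 1, 2, 3 and 5, and at 3.74, 5.24, 3.35 and 6.49 CPM in MIA 1, 2, 4 and 5. The lowest and the highest of the 8 values were both in MIA. Hspa1b was at 15.7, 12.3, 10.3 and 15.01 CPM in the MIA_Acu libraries, and at 11.1, 11.5, 11.2 and 17.1 CPM in the MIA libraries, where MIA 5 stood alone above the other 3. Of the pair's counts, Hspa1b held 70.3% to 76.9% in MIA_Acu and 68.7% to 77.0% in MIA, so the split was alike in both groups. With the counts of both genes added, which does not depend on the split, the pair was at 18.3 ± 2.93 CPM in MIA_Acu and 17.4 ± 4.22 CPM in MIA (SD, n = 4 each), a log2 fold change of 0.07 (SE 0.17, edgeR adjusted p = 0.862). The sign of this value changed with single libraries: it was 0.25 without MIA 5 and -0.01 without MIA 4, MIA 1 or MIA_Acu 5. A difference in the inducible HSP70 pair was therefore not detectable between these libraries.

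Dnajb1 (ENSMUSG00000005483) encodes the inducible J-domain partner of HSP70. It was at 57.1, 52.3, 53.7 and 53.0 CPM in MIA_Acu 1, 2, 3 and 5, and at 50.1, 59.8, 50.9 and 66.9 CPM in MIA 1, 2, 4 and 5. The 4 MIA_Acu values lay inside the range of the MIA values, and the log2 fold change was -0.08 (SE 0.10, edgeR adjusted p = 0.683), or 0.01 without MIA 5.

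Hsph1 (ENSMUSG00000029657) encodes HSP110, the nucleotide exchange factor of HSP70. Its level was 286, 231, 235 and 245 CPM in MIA_Acu 1, 2, 3 and 5, and 281, 311, 254 and 331 CPM in MIA 1, 2, 4 and 5. MIA_Acu 2, 3 and 5 lay below all MIA libraries, and MIA_Acu 1 above MIA 1 and MIA 4. The log2 fold change was -0.24 (SE 0.10, edgeR adjusted p = 0.213), and -0.28 (SE 0.10, adjusted p = 0.113) in the 6 libraries, past the threshold in neither.

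Hspb1 (ENSMUSG00000004951) encodes HSP27, a small heat shock protein that holds unfolded clients without ATP and binds cytoskeletal filaments. It was at 107, 98.2, 102 and 90.3 CPM in MIA_Acu 1, 2, 3 and 5, and at 114, 130, 99.0 and 150 CPM in MIA 1, 2, 4 and 5. Apart from MIA 4, which lay among the MIA_Acu values, the MIA libraries were higher than all MIA_Acu libraries. The log2 fold change of -0.31 (SE 0.12, edgeR adjusted p = 0.184) was the lowest of the members. In the 6 libraries Hspb1 fell, with a log2 fold change of -0.42 (SE 0.11, edgeR adjusted p = 0.0483). With the replicate number as a block the log2 fold change was -0.41 (SE 0.12) and the call was lost (adjusted p = 0.0856, with 7.85% of all genes called), and leaving out MIA 5 moved the log2 fold change of the 8 libraries to -0.20 (adjusted p = 0.378).

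Upstream sequence of Hsph1 (chr5:149636337-149636586, minus strand) and Hspb1 (chr5:135887669-135887918, plus strand) is shown for comparison with the HSP70 pair. Each stretch is the 250 bases before the outermost RefSeq start site in GRCm38.p6, and capitals mark matches to GAANNTTC or TTCNNGAA.
Hsph1: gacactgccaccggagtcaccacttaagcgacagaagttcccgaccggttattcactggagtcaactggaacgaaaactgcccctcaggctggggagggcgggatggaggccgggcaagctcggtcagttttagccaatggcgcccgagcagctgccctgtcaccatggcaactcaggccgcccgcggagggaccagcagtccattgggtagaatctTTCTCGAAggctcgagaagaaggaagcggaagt
Hspb1: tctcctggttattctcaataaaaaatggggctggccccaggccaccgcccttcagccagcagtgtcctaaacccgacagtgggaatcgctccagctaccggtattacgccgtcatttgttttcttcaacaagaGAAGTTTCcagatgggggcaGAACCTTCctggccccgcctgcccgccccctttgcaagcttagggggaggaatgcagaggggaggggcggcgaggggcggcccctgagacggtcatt
Both letter strings read the same on either strand. RefSeq promoter windows of 300 bases (250 before and 50 after the start site) were at hand for 7 of the 10 members, matched by symbol, in 10 windows. At least 1 of these strings occurred in a window of 5 members (Hspa1a, Hspa1b, Hsph1, Hspb1 and Hspd1), against 15.1% of the 32851 windows in the table. The longer array GAA, TTC, GAA, each unit 2 bases of any kind from the next, occurred on either strand in a window of 2 members, Hsph1 (outside the stretch printed here) and Hspd1, against 0.603% of windows. Members are counted by gene over any of their windows and the shares are of single windows, so these are unlike measures. No string occurred in the windows of Dnajb1. The bases just after its start sites there were not found in its annotated transcripts, so this lack says little about its promoter. A match of letters is a description of the sequence and not a measured binding site.

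The HSP90 genes encode the chaperones of kinases and steroid receptors: Hsp90aa1 (ENSMUSG00000021270) the more stress-responsive form, Hsp90ab1 (ENSMUSG00000023944) the more constant one. Hsp90ab1 was at 2461, 2119, 2056 and 2084 CPM in MIA_Acu 1, 2, 3 and 5, and at 2763, 2878, 2379 and 2676 CPM in MIA 1, 2, 4 and 5. Only MIA_Acu 1 reached the MIA range, above MIA 4 alone. The log2 fold change was -0.29 (SE 0.10, edgeR adjusted p = 0.146), and in the 6 libraries, where the groups did not overlap, -0.33 (SE 0.09, adjusted p = 0.0615). Hsp90aa1 was at 2178, 1810, 1703 and 1687 CPM in the MIA_Acu libraries, and at 2088, 2362, 1892 and 2235 CPM in the MIA libraries. MIA_Acu 1 lay above both MIA 1 and MIA 4, and the log2 fold change was -0.22 (SE 0.11, edgeR adjusted p = 0.291).

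Hspa8 (ENSMUSG00000015656) encodes HSC70, the constitutive HSP70, which also strips clathrin from vesicles after endocytosis. It was at 2448, 1999, 2107 and 2158 CPM in MIA_Acu 1, 2, 3 and 5, and at 2524, 2660, 2245 and 2725 CPM in MIA 1, 2, 4 and 5. As with Hsp90ab1, the groups overlapped only in that MIA_Acu 1 exceeded MIA 4. The log2 fold change was -0.22 (SE 0.10, edgeR adjusted p = 0.237), and -0.27 (SE 0.10, adjusted p = 0.119) in the 6 libraries. There the groups did not overlap for Hspa8, Hsp90ab1 and Hspb1, all lower in MIA_Acu, where 16.2% of the 18941 genes tested were lower without overlap.

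Hspa5 (ENSMUSG00000026864) encodes BiP, the HSP70 of the endoplasmic reticulum, and its values ran the other way. It was at 355, 304, 311 and 300.2 CPM in MIA_Acu 1, 2, 3 and 5, and at 289, 275, 301 and 307 CPM in MIA 1, 2, 4 and 5. MIA_Acu 1 was the highest, and MIA_Acu 2 and MIA_Acu 5 lay within the MIA range. The log2 fold change was 0.12 (SE 0.08, edgeR adjusted p = 0.401), and 0.07 without MIA_Acu 1. The 250 bases before its start site (chr2:34771840-34772089, plus strand, GRCm38.p6) are shown because they hold no match to either heat shock string and 1 match to the ER stress element (CCAAT, 9 bases of any kind, CCACG), in capitals, which 0.119% of the windows hold on either strand.
Hspa5: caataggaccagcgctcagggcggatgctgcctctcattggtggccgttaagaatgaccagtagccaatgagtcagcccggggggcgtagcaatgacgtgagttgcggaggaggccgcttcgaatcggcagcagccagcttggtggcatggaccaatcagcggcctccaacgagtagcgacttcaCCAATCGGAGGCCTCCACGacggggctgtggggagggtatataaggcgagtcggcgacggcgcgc

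Hspd1 (ENSMUSG00000025980) encodes HSP60, the chaperonin of the mitochondrial matrix. It was at 277, 231, 245 and 241 CPM in MIA_Acu 1, 2, 3 and 5, and at 272, 282, 258 and 291 CPM in MIA 1, 2, 4 and 5. MIA_Acu 2, 3 and 5 lay below all MIA libraries and MIA_Acu 1 among them, and the log2 fold change was -0.15 (SE 0.08, edgeR adjusted p = 0.280). Its partner HSP10 is encoded by Hspe1, which overlaps Hspd1 on the opposite strand in GENCODE M21 and is named here for that position, outside the rule for named genes. Hspe1 was at 51.7 ± 7.02 CPM in MIA_Acu and 49.2 ± 3.92 CPM in MIA (SD, n = 4 each), a log2 fold change of 0.07 (SE 0.10, edgeR adjusted p = 0.725). No source states whether counting used strand, and without strand the reads of the shared stretch cannot be told apart. The window at the inner start site of Hspd1 holds overlapping matches to the longer array on both strands. They are shown in capitals within 30 bases (chr1:55088053-55088082, minus strand, GRCm38.p6). The window at the outermost start site (chr1:55088194-55088493, minus strand) holds no match to any of the strings. The printed stretch lies downstream of that outermost start site.
Hspd1: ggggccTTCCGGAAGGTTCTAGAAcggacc

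**Figure D3:**
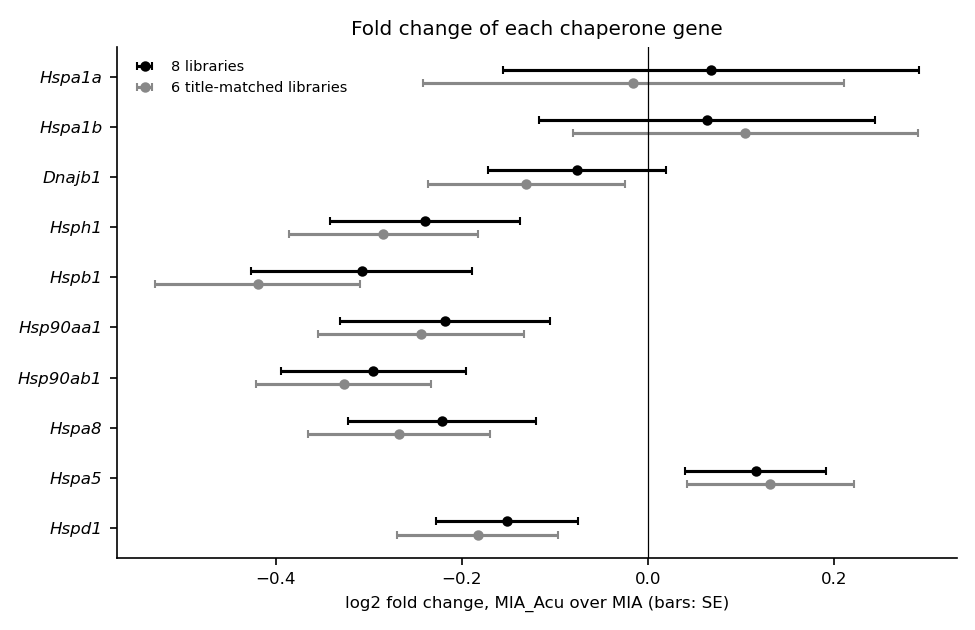
Log2 fold change of each chaperone gene, MIA_Acu over MIA, with its standard error from edgeR, in 8 libraries (black) and in the 6 libraries numbered 1, 2 and 5 (grey). Values run from -0.31 for Hspb1 to 0.12 for Hspa5 in 8 libraries.

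Some libraries were high or low for most members. MIA 5 held the highest of the 8 values for 7 of the 10 members, MIA 2 for 2 and MIA_Acu 1 for 1. Within MIA_Acu, library 1 was the highest for 9 members, and within MIA, library 4 was the lowest for 7. The median deviation of the members from their own mean log2 CPM was 0.07 in MIA_Acu 1 and between -0.15 and -0.12 in the other 3 MIA_Acu libraries, while it was -0.08 in MIA 4 and between 0.05 and 0.25 in the other 3 MIA libraries. MIA_Acu 1 and MIA 4 thus each stood on the other group's side of the mean. Over the 8 libraries the range was widest for Hspa1a, at 0.94 on the log2 scale, and narrowest for Hspd1, at 0.34.

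**Figure D4:**
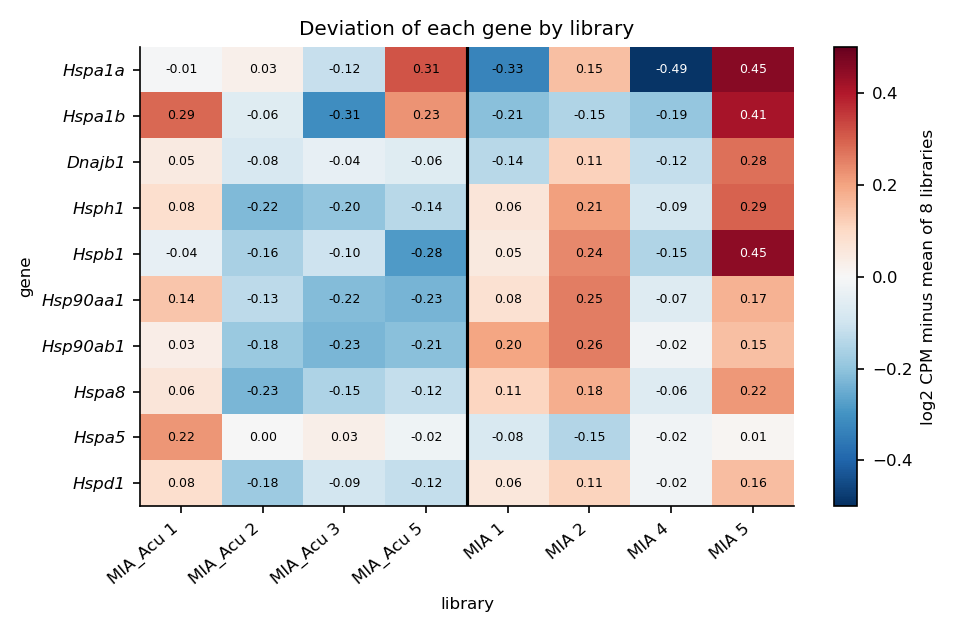
Log2 CPM of each chaperone gene minus its mean over 8 libraries, with the 4 MIA_Acu libraries left of the line and the 4 MIA libraries right of it. MIA_Acu 1 is above 0 for most genes and MIA 4 below 0 for all 10.

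Neuronal transcripts were lower in MIA_Acu as well. The 14 pan-neuronal markers all had negative log2 fold changes (median -0.34), 13 at an unadjusted p under 0.05, against 10.6% of all genes lower at that p, and 0 past the threshold in edgeR on 8 libraries. In the 6 libraries their median was -0.41 and edgeR called 8 of 14 lower, against 4.14% of all genes. MIA_Acu 1, the highest of its group for 9 members, had the highest neuronal sum of its group (16062 CPM), and MIA 4, the lowest of its group for 7 members, the lowest of its own (16286 CPM). The orders did not match throughout. MIA 5, the highest of its group for 8 members, had a lower neuronal sum (19660 CPM) than MIA 2 (21111 CPM). MIA_Acu 2 was the lowest of its group for 4 members and MIA_Acu 5 for 3. Their neuronal sums were 14408 CPM in MIA_Acu 2 and 14004 CPM in MIA_Acu 5. Set against the neuronal sum of each library, a ratio chosen after the values were seen and given without a test, Hspa8 was 13.9% to 15.4% of the sum in MIA_Acu and 12.6% to 14.1% in MIA. Hsp90ab1 was 14.2% to 15.3% of it in MIA_Acu and 13.6% to 15.4% in MIA, and Hspb1 0.645% to 0.706% in MIA_Acu and 0.608% to 0.761% in MIA. Hspa5 was 2.11% to 2.21% of it in MIA_Acu and 1.30% to 1.85% in MIA. Hsp90aa1 was 11.8% to 13.6% of it in MIA_Acu and 11.2% to 11.7% in MIA, and Dnajb1 0.355% to 0.378% in MIA_Acu and 0.280% to 0.341% in MIA. The ranges of Hspa5, Hsp90aa1, Dnajb1 and Hspd1 did not overlap, and those of the other members did. Without this scaling the groups overlapped for every member. The share of all genes without overlap on the scale of the ratio was not computed, so no result about the members is read from these ranges. Every member had a higher mean ratio in MIA_Acu, by 0.04 (Hspb1) to 0.44 (Hspa5) on the log2 scale. The ratio scales all genes of a library by the same factor and so raises every gene in MIA_Acu relative to MIA, members or not, and no direction is read from it. The part of the neuronal share of RNA in the differences of the members was not tested.

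Markers of myelinating Schwann cells, fibroblasts and endothelium were higher in MIA_Acu, where 52.9% of all genes had a positive fold change in 8 libraries. Summed levels of myelinating Schwann markers were 21227 to 40177 CPM in MIA_Acu and 7144 to 25517 CPM in MIA, with 10 of 10 genes higher. Fibroblast markers, 8 of 8 higher, summed to 2397 to 5853 CPM in MIA_Acu and 639 to 2023 CPM in MIA. Endothelial markers, 10 of 10 higher, summed to 352 to 465 CPM in MIA_Acu and 247 to 299.7 CPM in MIA. Immediate early genes, which respond to stimulation and to dissection, summed to 414 to 428 CPM in MIA_Acu and 334 to 392 CPM in MIA, and 12 of 16 were higher. Glucocorticoid-induced genes, which handling stress can raise, summed to 487 to 704 CPM in MIA_Acu and 359 to 457 CPM in MIA, and 9 of 9 were higher. Cdkn1a, outside the rule for named genes, held a large part of these sums. It was at 176, 196, 107 and 190 CPM in MIA_Acu 1, 2, 3 and 5. In MIA 1, 2, 4 and 5 Cdkn1a was at 94.2, 68.5, 151 and 109 CPM. It was also the gene of this list called higher in the 6 libraries. No separation of the groups is read from the sums of this list. In the 6 libraries, where 6.22% of all genes were called higher, edgeR called higher 10 of 10 Schwann, 5 of 10 endothelial and 2 of 8 fibroblast markers, 1 of 16 immediate early genes and 1 of 9 glucocorticoid-induced genes. No gene of these lists was at 0 in any library or passed the threshold in 8 libraries, and the part of these cell types and responses in the chaperone values was not tested.

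Among the other genes of protein folding, most genes of the TRiC, cochaperone and J-domain lists were lower in MIA_Acu and most of the endoplasmic reticulum list were higher. In none of these lists did a gene pass the threshold in edgeR's test on 8 libraries, where 52.9% of all genes had a positive fold change. Over all genes, 4.95% were higher and 5.91% lower without overlap of the groups in 8 libraries, the shares to set beside each such gene below. Of the 8 subunits of TRiC, the ring chaperonin that folds actin and tubulin, 7 were lower in MIA_Acu, against 47.1% of all genes. Their median log2 fold change was -0.14. At an unadjusted p under 0.05 in edgeR on 8 libraries, 3 were lower, against 10.6% of all genes. Cct8 was at 230 ± 19.5 CPM in MIA_Acu and 263 ± 14.8 CPM in MIA, and Cct7 at 192 ± 13.4 CPM in MIA_Acu and 219 ± 17.2 CPM in MIA (SD, n = 4 each, edgeR adjusted p = 0.204 and 0.205). All 8 subunits missed the threshold in the 6 libraries as well.

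Of 17 cochaperones of HSP70 and HSP90, 12 were lower and 5 higher, with a median of -0.07. Unc45a, the chaperone of myosin, was at 43.4 ± 3.33 CPM in MIA_Acu and 53.2 ± 3.74 CPM in MIA (SD, n = 4 each), lower without overlap of the groups (edgeR adjusted p = 0.105). Bag5, a nucleotide exchange factor of HSP70, was at 62.3 ± 5.35 CPM in MIA_Acu and 50.2 ± 5.37 CPM in MIA (edgeR adjusted p = 0.125), and it rose in the 6 libraries (adjusted p = 0.0229). In the 6 libraries 1 of the 17 rose (Bag5), against 6.22% of all genes, and 1 fell (Bag3, outside the rule for named genes), against 4.14%. Of 13 J-domain proteins 9 were lower and 4 higher (median -0.04). Dnajc6, the neuronal auxilin that recruits HSC70 to clathrin coats, was at 158 ± 11.0 CPM in MIA_Acu and 195 ± 19.6 CPM in MIA (edgeR adjusted p = 0.117). It was the 1 gene of the 13 that fell in the 6 libraries (edgeR adjusted p = 0.0299), against 4.14% of all genes. Dnajc5, the cysteine string protein of synaptic vesicles, was at 249 ± 21.4 CPM in MIA_Acu and 281 ± 20.1 CPM in MIA (edgeR adjusted p = 0.257). Of 8 relatives of HSP70 and HSP110 4 were higher and 4 lower. Hspa13, outside the rule for named genes, was the 1 of the 8 that rose in the 6 libraries (edgeR adjusted p = 0.0472), against 6.22% of all genes. Hspa4 was at a log2 fold change of -0.15 (SE 0.08) and Hspa9, the mitochondrial HSP70, at -0.11 (SE 0.07), with edgeR adjusted p = 0.329 and 0.405 in 8 libraries.

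Genes of the endoplasmic reticulum were higher in MIA_Acu in 18 of 19 cases, against 52.9% of all genes, with a median log2 fold change of 0.13. At an unadjusted p under 0.05, 5 were higher, against 11.2% of all genes. Levels of the 19 genes summed to 2737 to 3204 CPM in MIA_Acu and 2441 to 2736 CPM in MIA. The ranges all but touched, at 2737 CPM in MIA_Acu 5 and 2736 CPM in MIA 5. Serpinh1 alone was at 173 CPM in MIA_Acu 5 and 115 CPM in MIA 5, a wider gap. No separation of the list is read from the sums. Serpinh1, the collagen chaperone HSP47, was at 199 ± 17.97 CPM in MIA_Acu and 94.7 ± 33.1 CPM in MIA (SD, n = 4 each), higher without overlap, with a log2 fold change of 1.07 (SE 0.23, edgeR adjusted p = 0.0881), and it rose in the 6 libraries (adjusted p = 0.0232). P4hb, a disulfide isomerase and subunit of collagen prolyl hydroxylase, was at 197 ± 6.06 CPM in MIA_Acu and 161 ± 16.7 CPM in MIA, also without overlap (edgeR adjusted p = 0.116). Both act in collagen synthesis, and the part of the fibroblast markers given above in these values was not tested. In the 6 libraries Serpinh1 was the 1 gene of the 19 that passed, against 6.22% of all genes called higher.

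The small heat shock proteins other than Hspb1 had the widest fold changes, from -0.26 to 2.45 on the log2 scale, with 5 of 7 higher and a median of 0.96. Cryab, the alpha-B-crystallin of muscle, lens and glia, was at 519 ± 80.5 CPM in MIA_Acu and 268 ± 112 CPM in MIA (SD, n = 4 each), higher without overlap (edgeR adjusted p = 0.125), and it rose in the 6 libraries (adjusted p = 0.0274). Of the 7 genes, 2 were higher without overlap, against 4.95% of all genes, and 1 was called higher in the 6 libraries, against 6.22%. Hspb7, a small heat shock protein of heart and skeletal muscle, was at 26.1 ± 28.4 CPM in MIA_Acu and 4.81 ± 2.96 CPM in MIA, a log2 fold change of 2.45 (SE 0.85, edgeR adjusted p = 0.155), and of 1.58 (SE 0.77, adjusted p = 0.227) in the 6 libraries, which leave out MIA_Acu 3. It was highest in MIA_Acu 3 (67.3 CPM) and lowest in MIA 2 (0.652 CPM), the libraries with the highest and the lowest muscle marker sum. The part of muscle and Schwann transcripts in these values was not tested.

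**Figure D5:**
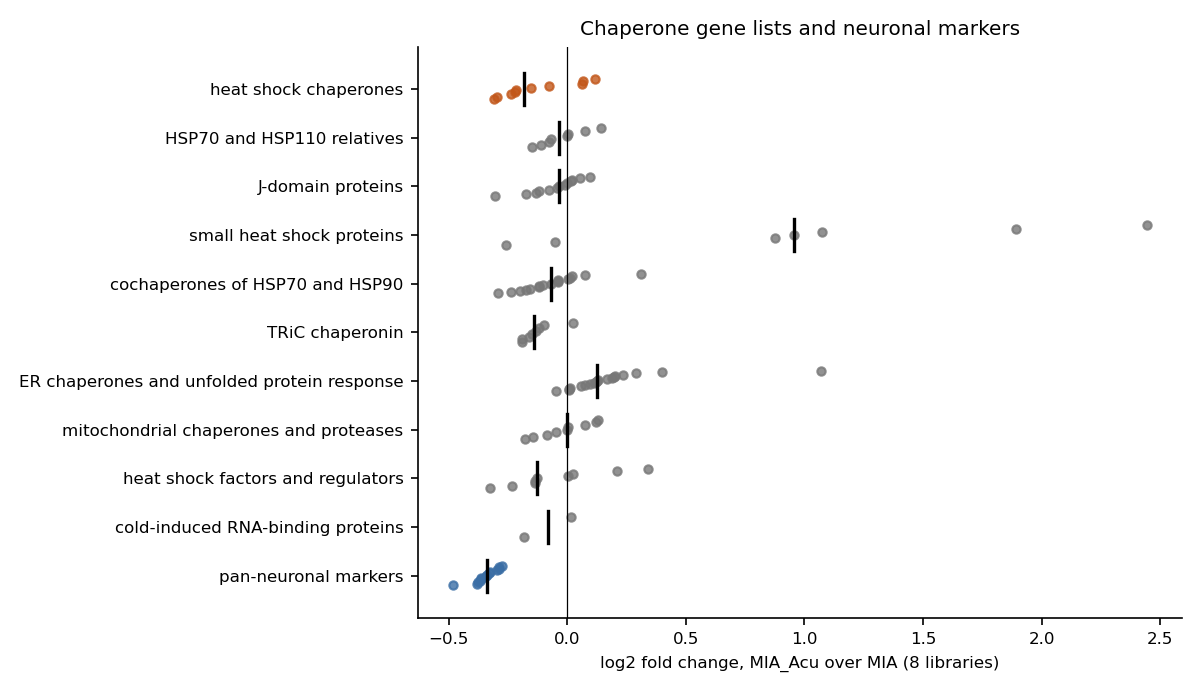
Log2 fold change (MIA_Acu over MIA, 8 libraries) of each tested gene in the chaperone lists and of the pan-neuronal markers; black bars are list medians. The medians are -0.18 for the heat shock chaperones, 0.13 for the endoplasmic reticulum list, 0.96 for the other small heat shock proteins and -0.34 for the neuronal markers.

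Mitochondrial chaperones and proteases were 4 higher and 5 lower, with Trap1, the mitochondrial HSP90, at a log2 fold change of -0.14 (SE 0.08, edgeR adjusted p = 0.294) and Grpel2, an exchange factor, at 0.13 (SE 0.07, adjusted p = 0.303). Of 9 heat shock factors and regulators 4 were higher and 5 lower, and in the 6 libraries 2 rose (Sirt1 and Hsbp1, the second outside the rule for named genes), against 6.22% of all genes, and 1 fell (Hsbp1l1), against 4.14%. Sirt1, a deacetylase that acts on HSF1, was at 31.6 ± 2.04 CPM in MIA_Acu and 25.0 ± 1.33 CPM in MIA (SD, n = 4 each), higher without overlap (edgeR adjusted p = 0.0881), and it rose in the 6 libraries (adjusted p = 0.0201). Hsbp1l1 was at 23.8 ± 1.20 CPM in MIA_Acu and 29.8 ± 2.97 CPM in MIA, lower without overlap (edgeR adjusted p = 0.108), and it fell in the 6 libraries (adjusted p = 0.0262). Hsf1 itself, named outside the rule after its value was seen, was at 25.7 ± 1.10 CPM in MIA_Acu and 25.3 ± 1.43 CPM in MIA, a log2 fold change of 0.02 (SE 0.07, edgeR adjusted p = 0.880). Of the cold-induced RNA-binding proteins, which respond to temperature in the opposite sense to heat shock genes, Rbm3 was at 105 ± 14.0 CPM in MIA_Acu and 119 ± 16.5 CPM in MIA (edgeR adjusted p = 0.421).

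The mean centred log2 CPM of Hspa1a, Hspa1b, Dnajb1 and Hsph1 was highest in MIA 5 (0.36), then MIA_Acu 1 (0.10), MIA_Acu 5 (0.09) and MIA 2 (0.08), and lowest in MIA 4 (-0.22). Among 11092 other genes with a mean log2 CPM of at least 3, the 6 whose profile over the 8 libraries lay nearest to it were Prmt6, Slc25a39, Mif, Mettl3, Tmem129 and Gm4202. Their root mean square differences from it were 0.08 to 0.10 on the log2 scale, against a median of 0.22 over all candidates. Every gene is scaled by the same 8 library factors, so this likeness is a description.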

How the data were processed

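Raw counts per Ensembl gene from 8 libraries, not normalized, were deposited by the authors in a single table. The submitters' processing notes name the mouse build GRCm39 (mm39), Trimmomatic and FastQC. The aligner, the counter, its strand setting and the annotation release are among the steps not given in the sources used here. Poly(A) RNA was sequenced after TRIzol extraction with a NEBNext Ultra library kit, per the labels' protocols. Counts were analysed with edgeR 4.0.16 in R 4.3.3 (glmQLFit and glmQLFTest): filterByExpr by group (minimum count 10, minimum total 15), TMM, a model with group alone, and adjustment by Benjamini-Hochberg over all 18971 genes tested, with a threshold of an adjusted p under 0.05. Standard errors were derived from the F statistic, and log2 CPM used a prior count of 2. The biological coefficient of variation was 22.9%. Precision is limited by 4 libraries per group. The tests were run on simulated counts with larger fold changes than those of the members and a smaller spread than in these data. That check does not show what the tests can detect at the members' fold changes.

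Each column took the group in its name. MIA_Acu 3 and MIA 4 match no title of their group, so their exchange was an alternative, beside the 6 matched libraries (also with a replicate block), each library left out, DESeq2 1.42.0 and its size factors, limma 3.58.1 voom, and no filter or a stricter filter. Members and lists were chosen with earlier results of these data known. Named genes were all members and, per list, the 2 with the smallest p (1 in the list of 2 cold-induced genes). Hspe1, Hsf1, Hspa13, Bag3, Hsbp1 and Cdkn1a were named outside this rule after their values were seen. A symbol on several rows was left out of its list (1 gene). Within groups, chi-square per degree of freedom between libraries was at least 19.7, so none was a repeat of another. Transcript lengths come from GENCODE M21 and promoter sequences from RefSeq, both on GRCm38, and the counts carry no coordinates.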

Additional observations from a re-analysis of the deposited data

Results flagged for a closer look

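In 2 of the 20 combinations of member and group, 1 library stood apart from the other 3 of its group by the criterion used (Dixon's test of the gap over the range, at 95%), which chance alone meets in about 1 of 20. Hsp90ab1 was at 2461 CPM in MIA_Acu 1, against 2056 to 2119 CPM in the other MIA_Acu libraries. Hspa1b was at 17.1 CPM in MIA 5, against 11.1 to 11.5 CPM in the other MIA libraries.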

How the results depend on the processing

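The count of members past the threshold was 0 of 10 in 8 libraries and stayed 0 (lowest and highest) when each library was left out. It was 1 with DESeq2 (Hsp90ab1) and 1 in the 6 libraries numbered 1, 2 and 5 (Hspb1), and 0 in the other alternatives, the exchange of MIA_Acu 3 and MIA 4 included. Hspa8, Hspa5, Hsp90aa1, Hsp90ab1, Hsph1, Hspb1 and Hspd1 kept their direction in all 16 alternatives of the fit. Hspa1a turned to -0.0154 in the 6 libraries, to -0.0823 with the exchange, to -0.03 without MIA_Acu 5, to -0.03 without MIA 1 and to -0.0650 without MIA 4, and without single libraries it lay between -0.0650 and 0.26. Hspa1b lay between -0.0183 and 0.24 without single libraries, at -0.0183 without MIA_Acu 1 and -0.000894 without MIA 1. Dnajb1 lay between -0.136 and 0.0102 without single libraries, turning without MIA 5. The pair summed lay between -0.0123 and 0.25 (-0.00587 without MIA_Acu 5, -0.00880 without MIA 1, -0.0123 without MIA 4). The cause of these turns was not tested. Levels per kilobase moved by more than their SD for 6 members with the mean transcript length. Over all genes the count past the threshold was 0 in edgeR on 8 libraries and 1748 with DESeq2, 1963 in the 6 libraries, 1340 without MIA 4, 207 with the exchange and 6 with no filter. For the replicate numbers 1, 2 and 5, deviations of same-numbered libraries correlated at 0.06, 0.26 and 0.02 across genes, so not each was over 0.1 and the numbers were not taken as pairs; that 5 of 6 libraries correlated best with their own number is a hint from the data, not the design. The fit with the replicate block called 0 members and 1486 genes in all, and the summed pair had a log2 fold change of 0.09 (adjusted p = 0.720). Depth limits Hspa1a most, at 123 to 264 counts a library.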
